A study of Brassica rapa and Brassica rapa x Brassica nigra and Brassica nigra with 18 samples.

Results

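Gene expression from the A genome was compared between anthers of a synthetic Brassica allohaploid and anthers of its maternal species, Brassica rapa, at meiosis. Of 79644 gene identifiers in the count table, 36454 carry the prefix BjuA and were taken as A genes. Of these, 29519 had at least 1 count in the 6 libraries compared, and 20072 passed a filter on low counts and were tested. The 16382 A genes that were not tested held 0.308% ± 0.00202 of the A counts in B. rapa and 0.260% ± 0.00434 in the allohaploid (SD, n = 3 libraries per group here and below).

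Both groups consist of young anthers labelled as meiosis, the phase in which the male sporocytes divide to form spores. The first group is B. rapa (genome AA), and the second is the haploid hybrid (AB) of a B. rapa mother and a B. nigra father. The labels give no inbred line, age or treatment. The protocol speaks of collected flower buds, while the tissue label names the anther, and the growth label gives the cross for every library, the parents included. Whether each library is its own plant is not stated, so a p-value measures no more than library-to-library spread, possibly of technical origin. The anther libraries of B. nigra (genome BB) and those of the mitosis stage served here to sort genes and as a second comparison.

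An anther holds sporocytes surrounded by the tapetum, a nurse layer that feeds the developing spores, and by outer wall layers. At meiosis homologous chromosomes pair, exchange segments and separate. In an allohaploid each chromosome comes from only 1 of the 2 species and has no homologous partner. B. juncea, the natural species with this genome combination, carries both genomes as complete pairs.

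The AA libraries held between 10791787 and 10854684 A counts and the AB libraries between 5694504 and 5756733, since the A genome took 92.5% of all counts in each AA library and 49.1% in each AB library. Libraries of the same group differed by more than sampling noise, with a chi-square per degree of freedom of 2.39 to 2.76 between them against 74.6 to 75.5 between groups. Expression is given as CPM of A counts (a gene's count scaled to a fixed library total) after TMM scaling, so that each level is relative to the other A genes of the same library. In whole anthers, fewer cells of a type and less RNA per cell cannot be told apart. No gene names accompany the identifiers in the files, so marker genes of sporocytes or tapetum could not be checked. Genes are therefore described by level, coding length, stage preference and counts in B. nigra, and at most 2 identifiers in each direction are named per group of genes.

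The A genes differed widely between the 2 kinds of anther. A gene was called when its adjusted p was under 0.05 (edgeR, quasi-likelihood, Benjamini-Hochberg over all genes tested). Of the 20072 genes tested, 12298 were called, or 61.3%, with 6349 higher in AB (31.6%) and 5949 lower (29.6%). At least a 2-fold difference was seen for 4944 of the called genes, which is 24.6% of those tested. For 13242 genes (66%) the 3 AB libraries did not overlap the 3 AA libraries, with AB above AA for 6715 and below for 6527. Taking library sizes from all genes instead of A genes gave 3857 higher and 9376 lower and moved the median log2 difference of all A genes from 0.00 to -0.33. The limma test on log2(FPKM + 1), where FPKM is a level per coding length, scaled to the total of both genomes, gave 1430 higher and 16006 lower and a median of -0.86.

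Genes that B. nigra libraries also register under an A identifier were kept apart. For each A gene the mean CPM of all counts was taken over the 6 AA and the 6 BB libraries, and a gene was called shared with BB when BB supplied 10% or more of the sum. By this limit 18263 tested genes were not shared, 1800 were shared, and 9 had no counts in any of the 12 parental libraries. B. nigra has no A genome, so counts of BB on an A identifier are not a level of that A gene.

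Among the genes not shared with BB, 5025 were higher in AB and 5846 lower. These are 27.5% and 32.0% of the class, and the remaining 7392 were not called. At 2-fold or more, 1328 genes were higher in AB and 2520 lower. Under 2-fold, 3697 were higher and 3326 lower, a split that turned with the scaling, to 3366 and 3654 with upper-quartile factors, 2077 and 4990 with all-gene library sizes and 401 and 7320 with limma on log2(FPKM + 1). At 4-fold or more the counts were 254 higher and 820 lower. At 8-fold or more they were 72 and 309, with genes at 0 counts in 1 group set to a floor of 3 counts over its 3 libraries. The median log2 difference of the class was -0.06, with a middle 50% between -0.60 and 0.40 and the outer 5% of genes below -1.90 and above 1.21. The lower tail was thus the longer of the 2.

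The surplus of lower genes over all sizes depended on the scaling. When genes shared with BB were left out before scaling and testing, 5396 were higher and 5450 lower, and when differences were centred on the median of the class, 5594 were higher and 5316 lower. All-gene library sizes split the class into 2757 higher and 9166 lower, limma with FPKM into 526 and 15422, and upper-quartile factors into 4540 and 6392. The surplus at 2-fold or more remained in the fits scaled by A counts. It stood at 1447 higher and 2362 lower in the first, 1518 and 2311 in the second and 1174 and 2738 with upper-quartile factors. All-gene library sizes and limma with FPKM scale by the totals of both genomes, of which A genes took 92.5% in AA and 49.1% in AB. A shift of A genes to lower values in AB is thus built into both, and they cannot decide on this surplus. The class limit itself removes some genes that are low in AA. When the class was made from the mitosis libraries alone, which do not enter the comparison, 1277 genes were at least 2-fold higher and 2391 at least 2-fold lower.

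**Figure D1:**
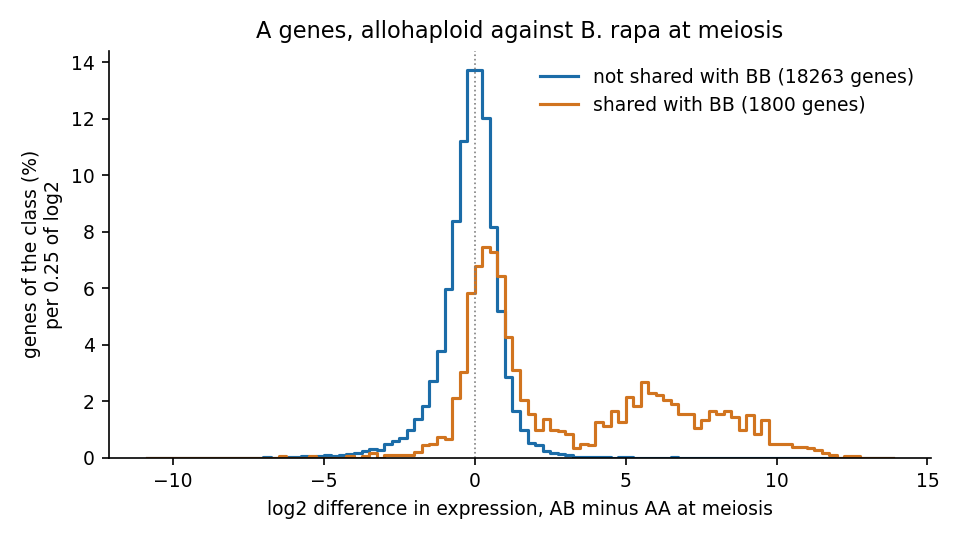
Distribution of the log2 difference between AB and AA at meiosis for A genes not shared with BB (blue) and shared with BB (orange), in percent of the genes of each class per step of 0.25. Genes at 0 counts in 1 group are placed at a floor of 3 counts, the class not shared peaks near 0 with a longer left tail, and the shared class has a second mass of genes far to the right.

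The direction of the difference varied with the level of the gene. The genes not shared with BB were grouped by their mean CPM over both groups of libraries. Of 7375 genes at 1 to 10 CPM, 15.2% were higher in AB and 28.7% lower, with a median log2 difference of -0.22. Of 8750 genes at 10 to 100 CPM, 32.2% were higher and 33.9% lower, with a median of -0.01. Part of the low range was shaped by the filter, which a gene can pass through the group where it is high. At 5 to 10 CPM the filter removed 0 genes of this class, and there 526 of 2794 genes were higher in AB and 860 lower, or 18.8% and 30.8%. At 1 to 5 CPM it removed 331 genes, and the 596 higher and 1256 lower became 265 and 371 among the 2211 genes that reached the filter level in every library.

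Genes with high levels leaned the other way under the scaling by A counts. All-gene library sizes moved the median of the class from -0.06 to -0.39, and the levels were not compared under that scaling. Of 1988 genes at 100 to 1000 CPM, 1042 were higher in AB and 692 lower, or 52.4% and 34.8%, with a median of 0.13. Among the 53 genes at 1000 CPM or more, 33 were higher and 16 lower, with a median of 0.27 and a middle 50% between -0.13 and 1.09. The 97 tested genes under 1 CPM had 14 higher and 57 lower. At 2-fold or more, 666 genes were higher and 1476 lower at 1 to 10 CPM, and 495 and 840 at 10 to 100 CPM. The counts were 138 and 141 at 100 to 1000 CPM and 15 and 6 at 1000 CPM or more. Among all tested genes of the class, the surplus of lower genes at 2-fold or more lay mainly below 100 CPM. These counts include genes that reached the filter level in 1 group only, and the part of the filter in this surplus was not tested. The median standard error of a log2 difference was 0.31 at 1 to 10 CPM and 0.05 at 100 to 1000 CPM, so smaller differences could be called at high levels. Of the genes of this class, 1594 reached the level required by the filter in all AA libraries but not in all AB libraries, and 566 the reverse. These genes could pass only with a difference between groups or near the limit.

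**Figure D2:**
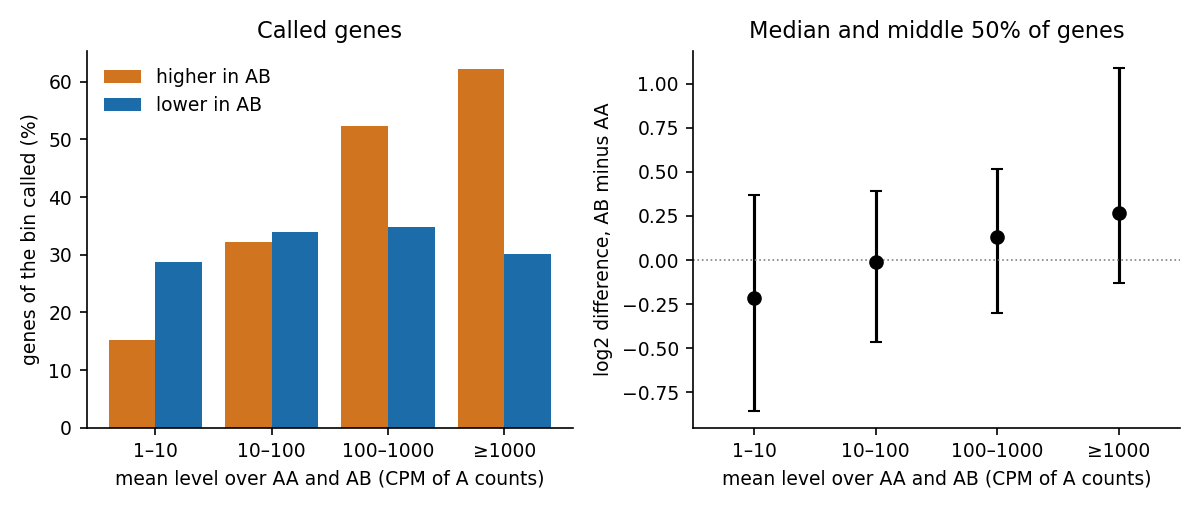
A genes not shared with BB, grouped by mean CPM over AA and AB on the horizontal axes. Left, bars give the percent of genes called higher (orange) or lower (blue) in AB, and right, points give the median log2 difference with bars for the middle 50% of genes. The percent higher rises from 15.2% to 62.3% and the median from -0.22 to 0.27 with level, and the 97 genes under 1 CPM are not drawn.

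In terms of the transcripts themselves, the 5025 called genes that were higher in AB took 37.6% ± 0.0136 of the A counts in AA and 53.7% ± 0.0666 in AB. The 5846 lower genes went from 40.6% ± 0.0170 to 20.9% ± 0.0280, and the 7392 genes without a call from 17.4% ± 0.0168 to 15.6% ± 0.0153. These sets were chosen by the same libraries, so the values describe their weight and test nothing. The 1328 genes at least 2-fold higher went from 5.34% to 13.1% of the A counts, and the 2520 at least 2-fold lower from 13.8% to 3.49%.

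The A counts of AB were concentrated in fewer genes. The 100 genes with the most counts in a library took 15.7%, 15.8% and 15.8% of the A counts in the 3 AA libraries and 18.6%, 18.5% and 18.7% in the 3 AB libraries. All AB values lay above all AA values, and the means differed by 2.87 percentage points. The number of genes that together made up 50% of the A counts was 1174, 1173 and 1166 in AA and 1020, 1023 and 1014 in AB, again without overlap. Both differences were larger than the spread between libraries, and for each the exact permutation p (two-sided) was 0.1, the smallest that 3 libraries against 3 allow. Without genes shared with BB the means were 1128 ± 4.36 genes in AA and 953 ± 5.03 in AB. With FPKM, which accounts for coding length, they were 611 ± 4.93 and 539 ± 8.74. The order of the strongest genes also changed, since 58 of the 100 genes with the highest mean share were common to both lists. Of the 42 found in the AB list alone, 10 were shared with BB.

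The balance of calls also differed between coding lengths. The shortest of 4 equal groups of the genes not shared with BB, with coding lengths from 147 to under 687 bases, had 26.4% higher in AB and 36.7% lower and a median log2 difference of -0.12. The longest group, from 1623 to 10497 bases, had 25.2% higher and 29.4% lower and a median of -0.08. The group from 1095 bases up to that limit was the only one with more genes higher than lower, at 29.5% against 28.2%, with a median of -0.004. So small a lean depends on the scaling, since upper-quartile factors moved the median of the class from -0.06 to -0.12. The length groups were not compared under other scalings or at equal level. Large differences in both directions were more frequent in the shortest group, with 364 genes at least 2-fold higher and 823 at least 2-fold lower, than in the longest, with 265 and 467.

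The genes were also sorted by the stage at which they are mainly expressed, using the ratio of meiosis to mitosis averaged over AA and AB on a log scale so that both kinds of plant count equally. This sorting uses the same meiosis libraries as the comparison and was chosen after the data were seen. Among 703 genes at least 8-fold higher at meiosis, 294 were higher in AB and 254 lower, or 41.8% and 36.1%, with a median log2 difference of 0.09. Genes typical of the meiosis stage were thus somewhat more often higher than lower in AB under the scaling by A counts. All-gene library sizes moved the median of the class from -0.06 to -0.39, and the stage groups were not compared under that scaling. Among 659 genes at least 8-fold higher at mitosis, 129 were higher in AB at meiosis and 296 lower, with a median of -0.55 and a middle 50% between -1.72 and 0.43. Genes of the later stage were therefore called lower in AB anthers more often than higher. In the 9705 genes within 2-fold between stages, 27.3% were higher and 29.7% lower. Genes of the later stage are weakly expressed at meiosis, with a median standard error of 0.34 against 0.10 for the meiosis genes. Weak genes can pass the filter through the group where they are high. The part of level and of the filter in this pattern was not tested.

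**Figure D3:**
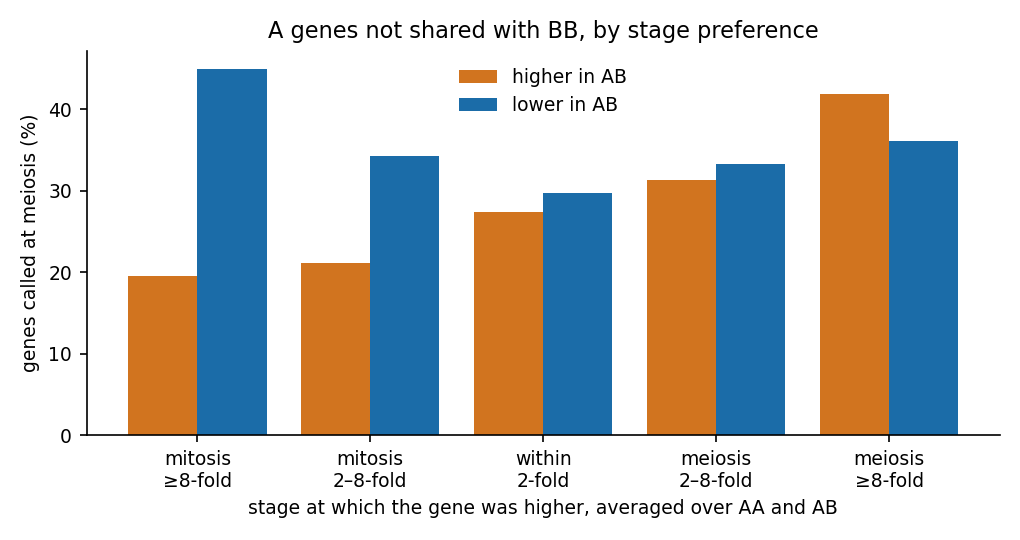
Percent of A genes not shared with BB that were called higher (orange) or lower (blue) in AB than in AA at meiosis, for 5 groups of genes by the stage at which they were more expressed, averaged over AA and AB. Lower calls fall from 44.9% in genes of the mitosis stage to 29.7% in genes within 2-fold and are 36.1% in genes of the meiosis stage, while higher calls rise from 19.6% to 41.8%.

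Single genes with large shifts in counts were picked among called genes that differed at least 4-fold without overlap between groups and averaged 10 or more counts in the lower group. In the class not shared with BB, 137 genes met this in the higher direction and 288 in the lower. The 2 with the largest difference in CPM in each direction are described here, all in CPM of A counts.

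BjuA015269 carried 0.870%, 0.880% and 0.868% of all A counts in the 3 AA libraries and 0.0910%, 0.0871% and 0.0894% in the 3 AB libraries. In CPM it stood at 8239, 8330 and 8231 in AA and at 959, 918 and 946 in AB. Every AB value lay far below every AA value, with a log2 difference of -3.14 (SE 0.02, edgeR adjusted p = 1.23e-24), or 8.79-fold lower. By FPKM, which allows genes to be ordered per length, it ranked 4 among the A genes in AA and 88 in AB. BjuA020323 stood at 2198, 2209 and 2267 CPM in AA and at 218, 230 and 215 in AB, with a log2 difference of -3.33 (SE 0.03, edgeR adjusted p = 9.92e-23). Its FPKM rank went from 21 in AA to 847 in AB. No count of BB at meiosis fell on either gene.

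At mitosis the same genes were not low in AB. BjuA015269 had 2386, 2304 and 2284 CPM in AA and 3665, 3689 and 3613 in AB at that stage. BjuA020323 had 492, 515 and 523 CPM in AA and 849, 870 and 901 in AB, before TMM scaling here and for the other values at mitosis. In AA both genes thus had larger values at meiosis than at mitosis, and in AB smaller ones.

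BjuA036127 had the largest rise in CPM among the genes that met these criteria, though not the largest fold. It stood at 855, 895 and 885 CPM in AA and at 3669, 3673 and 3683 in AB, a log2 difference of 2.07 (SE 0.02, edgeR adjusted p = 1.32e-21). Its FPKM rank went from 278 to 17. The gene was nearly silent at mitosis in both, with 3.31, 1.65 and 3.37 CPM in AA and 2.50, 3.90 and 5.12 in AB. BB had 0 CPM on it at meiosis. Its CPM was 4.18-fold higher in AB at meiosis. With limma on log2(FPKM + 1) its log2 difference was 0.99 and that of BjuA014117, described next, 1.19, and with all-gene library sizes they were 1.75 and 1.95.

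BjuA014117 stood at 479, 445 and 444 CPM in AA and at 2159, 2200 and 2187 in AB at meiosis, with a log2 difference of 2.26 (SE 0.03, edgeR adjusted p = 1.83e-20). At mitosis it had 1 count in all 3 AA libraries together, whereas AB held 29.3, 44.4 and 50.1 CPM. BB supplied 0.685% of its parental CPM. The gene was therefore still present at mitosis in AB at a level where AA had almost none.

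**Figure D4:**
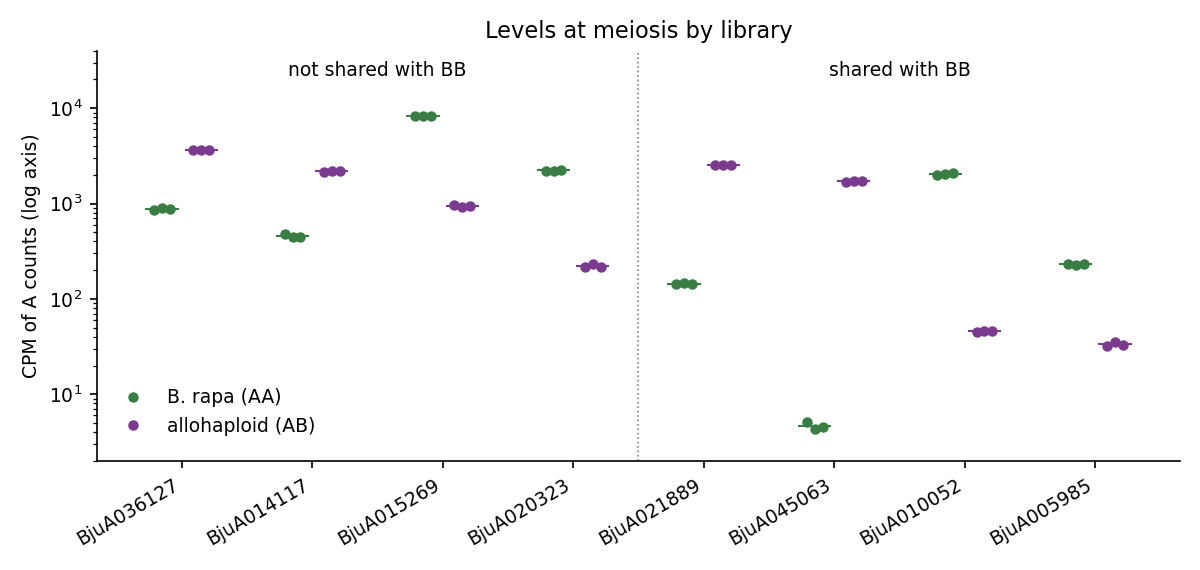
CPM of A counts at meiosis for the 8 named genes, on a log axis. Each point is a library, green for AA and purple for AB, and a line marks the mean of 3 libraries. The genes were picked for no overlap between groups, so the AB libraries lie clear of the AA libraries in all 8. BjuA015269, for example, lies between 918 and 959 CPM in AB against 8231 to 8330 in AA.

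Few A genes averaging 10 or more counts in AA had none in AB, and genes with fewer counts were not counted. Of the 26425 genes not shared with BB that had a count in the 6 libraries compared, 96 had 0 counts in the 3 AB libraries while averaging 10 or more counts in AA. For most of these the depth sets a loose limit, since their median AA count was 18.3 and a floor of 3 counts makes the median gene at least 8.72-fold lower in AB after TMM scaling. The most abundant of them averaged 3130 counts in AA and was at least 1489-fold lower. Of the 96 genes, 61 had a count in AB at mitosis. In the other direction 5 genes had 0 counts in AA at meiosis while averaging 10 or more in AB. After AA libraries were thinned at random to the depth of AB, 49 genes had 0 counts in AB and 10 had 0 in AA under the same limit. The floor covers counting error only, since no molecular identifiers separate reads from copies made by PCR. A further 9 A genes had no counts in any parental library and a mean of 10.7 to 818 counts in AB, with a median of 14.3.

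The direction at meiosis was compared with that at mitosis. At mitosis 11527 of 20713 A genes were called between AB and AA in a separate edgeR fit on other libraries, or 55.7%. In the class not shared with BB, 24.5% were then higher and 28.8% lower. Of the 5025 genes higher at meiosis, 4636 could be tested at mitosis, where 1341 were higher, 1266 lower and 2029 not called. These are 28.9% higher and 27.3% lower, close to the shares of the whole class. The 1341 genes are 26.7% of the list at meiosis and 29.2% of the list at mitosis. Of the 5846 genes lower at meiosis, 5138 were tested, with 1397 higher and 1437 lower at mitosis.

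Among genes with larger differences, calls in the same direction outnumbered those in the opposite one. Of the 1984 tested genes that were at least 2-fold lower at meiosis, 37.7% were lower and 21.9% higher at mitosis. Of 1064 that were at least 2-fold higher at meiosis, 35.3% were higher and 25.8% lower. The difference between the stages was tested as an interaction over 12 libraries, and 10058 of 23143 A genes, or 43.5%, were called. In the class not shared with BB, the difference between AB and AA was more positive at meiosis than at mitosis for 4630 genes and more negative for 4810. These are 22.0% and 22.9% of the 21008 tested.

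The 1800 A genes shared with BB were of another kind. Of these, 1315 were higher in AB and 103 lower, or 73.1% and 5.72%, and 1038 were at least 2-fold higher against 49 at least 2-fold lower. The median log2 difference was 1.55. This direction follows in part from the way the class is made, because a gene with few AA counts has a large BB share and a low base in AA. These genes took 4.14% ± 0.0122 of the A counts in AA and 9.43% ± 0.0312 in AB. At mitosis 1184 of the 1315 higher genes could be tested, and 946 were higher there. The AA libraries at mitosis enter the BB share as well, so this is not an independent repetition. Of the shared genes, 356 had 0 counts in AA and averaged 10 or more in AB. In all, 813 reached the level required by the filter in all AB libraries but not in all AA libraries.

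The difference was larger where more of the parental CPM came from BB. In 666 genes with a share of 10 to 25% the median log2 difference was 0.34, in 255 genes at 25 to 50% it was 0.66, and in 95 genes at 50 to 75% it was 1.36. It was 2.82 in 47 genes at 75 to 90% and 6.65 in 737 genes at 90% or more, the last with genes at 0 counts in AA set to the floor. Below the limit the medians were -0.13 in the 11810 genes with no BB counts, 0.00 under 1%, 0.09 at 1 to 5% and 0.25 at 5 to 10%. The AA libraries at meiosis enter both the share and the difference, so a low AA value raises both. With the share taken from the mitosis libraries alone, which are not in the contrast, the medians were -0.11 in 12615 genes with no BB counts, 0.22 at 5 to 10%, 0.24 at 10 to 25%, 2.38 at 75 to 90% and 6.55 at 90% or more. Just below the limit, 210 genes with a share of 8 to 10% had a median of 0.25, and 176 genes just above it had 0.21.

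**Figure D5:**
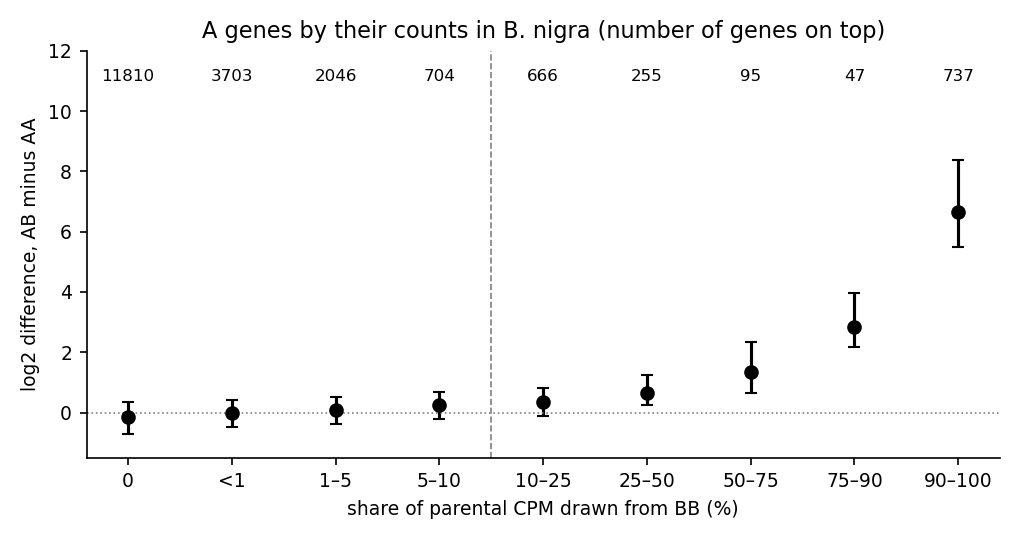
Median log2 difference between AB and AA at meiosis (points) with the middle 50% of genes (bars), for A genes grouped by the share of their parental CPM that came from BB libraries. The number of genes stands above each group and the dashed line marks the limit of 10%. Medians run from -0.13 in genes with no BB counts to 6.65 in genes at 90% or more, and both the share and the difference use the AA libraries at meiosis.

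The genes with 90% or more from BB were close to absent in AA and took 0.0385% ± 0.000389 of the A counts there and 3.25% ± 0.0117 in AB. In CPM of all counts at meiosis, their medians were 0.0284 in AA, 13.0 in BB and 5.94 in AB. Against the mean of both parents, their median log2 difference in AB was 0.10, with a middle 50% between -0.59 and 0.73. For the 921 genes with a share of 10 to 50% it was -0.01, and for those not shared -0.14, all with 0.1 CPM added.

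By the same rule as above, 111 shared genes met the criteria in the higher direction and 3 in the lower. BjuA021889 stood at 145, 146 and 143 CPM of A counts in AA and at 2509, 2525 and 2526 in AB, a log2 difference of 4.13 (SE 0.02, edgeR adjusted p = 6.55e-25). BB libraries held 1286 ± 18.2 CPM of all counts on this identifier at meiosis, and 91.4% of its parental CPM came from BB. BjuA045063 stood at 5.17, 4.36 and 4.48 CPM in AA and at 1693, 1725 and 1720 in AB, with 1455 ± 24.6 CPM of all counts in BB. Both identifiers thus had lower levels in AA than in AB, and than in BB by CPM of all counts. Over both stages the latter was 118 in AA and 1250 in BB for BjuA021889, and 4.55 and 878 for BjuA045063.

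Few genes of this class were lower in AB. BjuA010052 stood at 2010, 2039 and 2066 CPM in AA and at 45.3, 45.9 and 46.3 in AB, a log2 difference of -5.47 (SE 0.03, edgeR adjusted p = 6.26e-25). It is a short gene of 327 coding bases that ranked 5 by FPKM among A genes in AA and 1851 in AB. BB libraries held 241 ± 8.20 CPM of all counts on this identifier at meiosis, which is not a level of the A gene. By that measure AB held less on the identifier than BB, since its CPM of all counts in AB is lower still than its CPM of A counts. At mitosis it stood at 1022, 990 and 977 CPM of A counts in AA and at 791, 794 and 722 in AB. BjuA005985 stood at 233, 225 and 234 CPM in AA and at 32.0, 34.9 and 33.1 in AB at meiosis, with 114 ± 5.37 CPM of all counts in BB. Its log2 difference was -2.79 (SE 0.06, edgeR adjusted p = 9.58e-18). At mitosis AB was the higher one, at 55.9, 56.1 and 58.2 CPM against 31.5, 28.2 and 31.4 in AA.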

How the data were processed

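RNA libraries of young anthers were compared as deposited by the authors. HTSeq 0.6.0, HISAT2 2.1.0, Bowtie 1.0.1 and TopHat2 appear in the submitters' processing notes without roles. Not given in the sources used here: strand setting, genome build, annotation. The authors deposited raw counts per gene, assigned over A, B and unplaced genes at once, so reads of near-identical copies can fall on either copy and named genes may share reads with copies. The deposited FPKM values equal counts divided by a fixed coding length and the library total (largest relative deviation 5.32e-08). A column with a repeated name (1 in all) was not used. Of 51589 reference B. rapa genes, 0 shared an identifier with the files, so no gene list was tested and no sequence is printed.

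Counts of A genes alone from 6 libraries were fitted with edgeR 4.0.16 in R 4.3.3 (filterByExpr by group, TMM, quasi-likelihood F test on group, Benjamini-Hochberg over all 20072 genes, called under 0.05). Library sizes came from A counts. Standard errors are log2 differences over the root of F, and the common dispersion was 0.00605. Fits at mitosis (6 libraries) and of the interaction (12 libraries) used the same settings. In medians over genes, a gene at 0 counts in a group was set to 3 counts over its 3 libraries. Named genes had the largest CPM difference in each class and direction, among called genes with at least 4-fold difference, no overlap and a mean of at least 10 counts in the lower group. Alternatives were DESeq2 1.42.0, other scaling factors, no filter, a replicate block, both stages in the fit, all-gene library sizes, a 1.5-fold minimum, limma 3.58.1 with log2(FPKM + 1), thinned AA libraries, other class limits and leaving out each library. The pipeline was tested on simulated data. The members, classes and tests were chosen with earlier results of these data known, and centring on the genes not shared, the stage groups, the comparison with mitosis calls, the closer look at low levels and the BB share by mitosis libraries over its whole range were added after seeing these data.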

Additional observations from a re-analysis of the deposited data

Results flagged for a closer look

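All results here were picked out because the difference between AB and AA at meiosis differed from that at mitosis in edgeR's interaction test over 12 libraries, at a Benjamini-Hochberg adjusted p under 0.05. This held for 4630 genes not shared with BB with a more positive difference at meiosis and for 4810 with a more negative one. These are 22.0% and 22.9% of the 21008 genes of the class tested. All 8 named genes were among the genes called, as were 43.5% of all A genes tested. The meiosis values that chose the 8 genes enter the interaction too. BjuA015269 and BjuA020323 had interaction log2 values of -3.52 (SE 0.07) and -3.84 (SE 0.07), with AB lower than AA at meiosis and higher at mitosis. BjuA010052 and BjuA005985, both shared with BB, had -4.83 (SE 0.08) and -3.42 (SE 0.10). BjuA036127 had 1.86 (SE 0.26), with under 6 CPM of A counts in each library at mitosis. BjuA014117 had -7.33 (SE 0.54), a value that depends on the prior count because AA had 1 count at mitosis. Among the shared genes higher in AB, BjuA021889 had 0.25 (SE 0.08, edgeR adjusted p = 0.0135), so its difference was nearly the same at both stages, and BjuA045063 had 2.53 (SE 0.16).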

How the results depend on the processing

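Of 275 recomputed counts and concentration values, 233 stayed close to the reported value (counts within 1.5 times of it, concentration values within 1 SD between libraries), and all 140 values of the 8 named genes kept direction and call. These 8 genes were picked from the same libraries for large differences without overlap, so their stability is no independent support. With library sizes from all genes, all A genes gave 3857 higher and 9376 lower (1556 and 4248 at 2-fold or more), genes not shared with BB 2757 and 9166 (680 and 4176), and shared genes 210 lower. With limma on log2(FPKM + 1) these were 1430 and 16006 (842 and 8252), 526 and 15422 (125 and 8102), and 584 lower shared genes (150 at 2-fold or more). Both settings scale by the totals of both genomes. Testing against a minimum of 1.5-fold gave 2896 higher and 2760 lower, 1803 and 2714 not shared, and 46 shared lower. Moving the limit for shared genes to 1% gave 2352 shared genes higher and 737 lower (259 lower at 2-fold or more), to 5% 224 lower (87), to 25% 18 lower (12), and using mitosis libraries alone 175 lower. Leaving out shared genes put 15.9% of the A counts of AA and 18.8% of AB in the top 100 genes, with 1128 and 953 genes behind 50%. With FPKM these were 23.9%, 26.8%, 611 and 539 genes. With AA thinned, 10 genes not shared were at 0 in AA and 49 at 0 in AB. DESeq2 gave 6639 higher and 5867 lower. Leaving out each library in turn gave 5904 to 6183 higher and 5395 to 5743 lower of all A genes.

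Same-numbered libraries deviated together only weakly, with correlations of 0.0381, 0.00437 and 0.00837, and not every library correlated best with its own number, so the numbers were not taken as pairs. The replicate block gave 6139 higher and 5731 lower of all A genes, and 4829 and 5633 of those not shared. A counts per library are fewer in AB than in AA, which limits calls and zeros among weakly expressed genes.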

Other observations

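Identifiers with consecutive numbers were compared as a look at gene order, chosen after seeing the data. Across genes not shared with BB, Spearman's correlation of the log2 differences was 0.06 for 10525 pairs whose numbers were 1 apart, 0.02 for 9126 pairs 10 apart and -0.01 for 7377 pairs 100 apart. These are values across genes, which are not independent replicates, and the files do not say that numbers follow position. Of the 1000 genes with the highest share of A counts in each group, 746 were common to AA and AB. Of the 254 found in the AB list alone, 52 were shared with BB.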
